A study of Mus musculus with 16 samples.

Results

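CX3CR1+ macrophages were set against neutrophils sorted from the healing tendon-to-bone interface on postoperative day (POD) 14 after anterior cruciate ligament reconstruction (ACLR) in mice. The comparison rests on 4 of the 16 RNA-seq libraries of the study, namely the 2 of CX3CR1+ macrophages and the 2 of neutrophils whose labels give day 14. All came from wild-type C57BL/6 mice that had undergone the operation, and the methods give male animals 12 weeks of age. CX3CR1+ macrophages were gated as live, lineage-negative CD45+ Ly6G- CD11b+ F4/80+ CX3CR1+ CD9- cells, and neutrophils as live, lineage-negative CD45+ Ly6G+ Ly6C+ cells, which by the study's methods were CD11b+ as well. The paper describes its F4/80+ macrophages as Ly6C+ too. Each library held RNA pooled from several mice, so replicate spread is spread between pools, and no unoperated tissue was part of the comparison. Other libraries of the series entered the fit, and the same populations on POD 1 were used to ask whether their difference had been the same at the start of healing.

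Neutrophils are short-lived granulocytes that carry preformed antimicrobial proteins in several classes of granules, made in a fixed order while the cell matures in the marrow. Their granule mRNAs fade as maturation ends. Monocytes enter injured tissue through the chemokine receptor CCR2 and become macrophages, which take up debris in lysosomes, present antigen on MHC class II and release chemokines and matrix proteins. CX3CR1 is the receptor for fractalkine and marks monocytes and many macrophages, and CD9 is a tetraspanin of the cell surface.

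The libraries held 10254500 and 9996159 counts for CX3CR1+ macrophages and 10661077 and 12721779 for neutrophils. Levels are given as CPM, the counts of a gene relative to the scaled total of its library, with scaling by the trimmed mean of M values (TMM), and fold changes are CX3CR1+ over neutrophils on the log2 scale with the standard error (SE) of the fit. TMM factors were 1.10 and 1.07 for CX3CR1+ macrophages and 0.800 and 0.782 for neutrophils. Replicates correlated at 0.982 and 0.985 across genes on log2 CPM. Of 20200 genes listed, 12031 were tested with edgeR's quasi-likelihood test. A gene was called differentially expressed (a DEG) when its p, adjusted after Benjamini and Hochberg, was below 0.05 and its level differed by 1 or more on the log2 scale in either direction. In bulk samples fewer cells of a type and less RNA per cell cannot be told apart.

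The sorted populations differed widely. There were 5773 DEGs, which is 48.0% of the genes tested, with 3321 higher in CX3CR1+ macrophages (27.6%) and 2452 higher in neutrophils (20.4%). The differences were large, with 434 DEGs higher in CX3CR1+ macrophages and 303 higher in neutrophils by at least 5 on the log2 scale. The CPM of the groups did not overlap in 5659 genes in favor of CX3CR1+ macrophages (47.0%) and in 4870 in favor of neutrophils (40.5%). The median log2 fold change over all genes tested was 0.13.

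**Figure D1:**
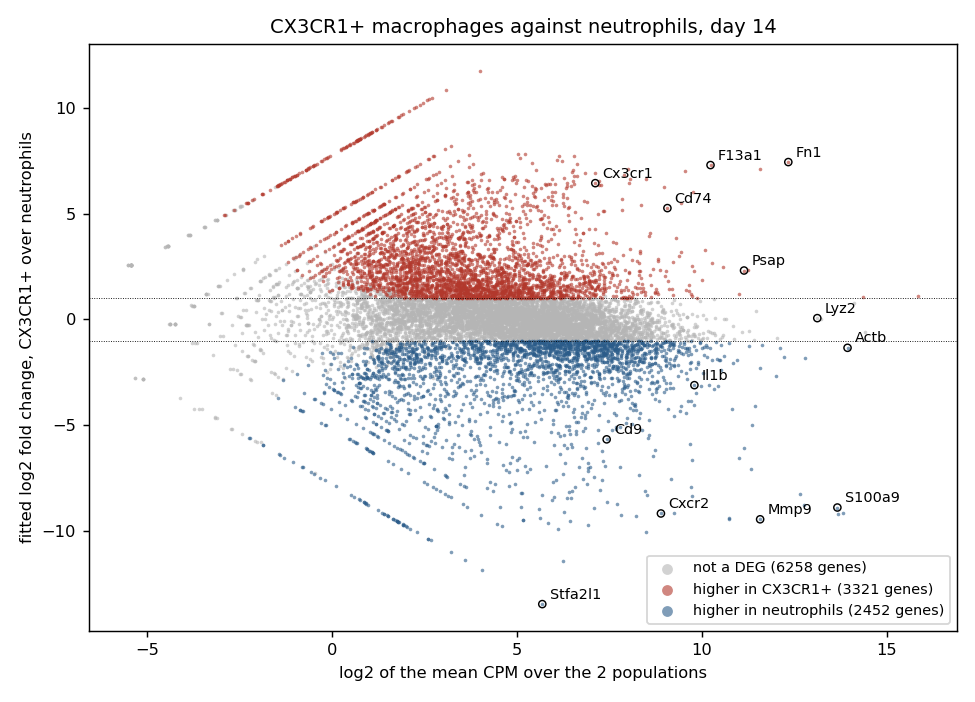
Fitted log2 fold change (CX3CR1+ over neutrophils) against the log2 mean CPM of the populations for the 12016 tested genes with a count in at least 1 of the 4 libraries; red and blue points are DEGs in each direction, grey points are not DEGs, and dotted lines mark 1 and -1. Fn1 and S100a9 lie far out at high level, Lyz2 lies near 0, and the straight rows of points at both margins are genes at 0 in a population, whose fitted values depend on the prior count.

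How the counts split by direction depended on the scaling. Scaling by library size alone placed 73.7% of 6158 DEGs in CX3CR1+ macrophages, against 57.5% with TMM. The numbers higher in CX3CR1+ macrophages and in neutrophils were then 4536 and 1622, and the median log2 fold change rose from 0.13 to 0.62. Upper quartile factors gave 3701 and 2147, and relative log expression (RLE) factors gave 3085 and 2685. Values near a log2 fold change of 1 therefore depend on this choice, while those of 5 or more moved by a small part of their size.

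**Figure D2:**
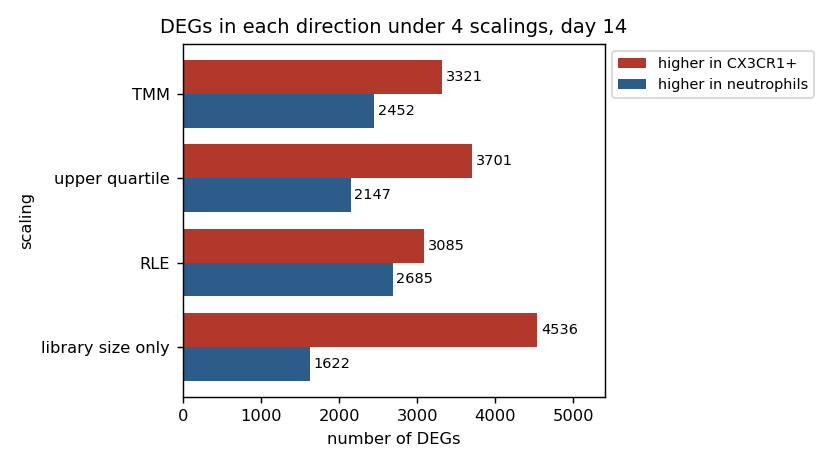
Number of DEGs on POD 14 (x axis) under TMM, upper quartile, RLE and library size scaling, red for genes higher in CX3CR1+ macrophages and blue for genes higher in neutrophils. Bars run from 3085 to 4536 in red and from 1622 to 2685 in blue, and library size alone has the widest gap.

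Most tested genes of the sort gate differed between the populations, while Ly6c2 and Ptprc were not DEGs. Ly6g (ENSMUSG00000022582, chr15:75155240-75159126, GRCm38), the antigen that defines neutrophils in the gate, stood at 0.442 and 0.653 CPM in CX3CR1+ macrophages and at 260 and 279 CPM in neutrophils. Cx3cr1 stood at 256 and 294 CPM in CX3CR1+ macrophages and at 3.40 and 2.92 CPM in neutrophils, a log2 fold change of 6.45 (SE 0.230). Adgre1, which encodes F4/80, was higher in CX3CR1+ macrophages by 2.85 (SE 0.233), and Itgam, which encodes CD11b, gated as positive in both populations by the methods, was lower by 2.21. The gate used the proteins of these genes, so their differences are no finding. Ly6c2, one of the genes for the Ly6C antigen, was not a DEG, with 400 and 408 CPM against 338 and 366 CPM and a 95% interval of -0.24 to 0.63. The paper describes both populations as Ly6C+. Ptprc (CD45) had a log2 fold change of -0.93 and did not reach the fold threshold, which it passed at -1.03 with RLE factors, and Ly6c1 fell below the filter.

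Cd9 was the widest surface difference of the gate after Ly6g and Cx3cr1. Its CPM was 6.71 and 6.53 in CX3CR1+ macrophages, which were gated as CD9-, and 337 and 339 in neutrophils, which were not gated on CD9. The log2 fold change was -5.67 (SE 0.161). Because CX3CR1+ macrophages were sorted as CD9-, their low level was set by the gate and the difference is no finding. Cd63, another tetraspanin of lysosomes and granules, followed with 2.03 and 4.20 CPM against 141 and 142 CPM.

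Neutrophil genes were higher in the neutrophil libraries almost throughout, often by more than 8 on the log2 scale. Of 33 tested genes of neutrophil identity and receptors, 32 were lower in CX3CR1+ macrophages, beside 20.4% of all genes, and none higher. Ly6g, a gate gene, was counted among the 32. The median log2 fold change of the list was -5.59. The exception was Csf2rb, the shared chain of the GM-CSF and IL-3 receptors, with a log2 fold change of -0.81. Cxcr2, the receptor for CXC chemokines that draws neutrophils into tissue, had 1.77 and 1.49 CPM in CX3CR1+ macrophages and 915 and 985 CPM in neutrophils. Csf3r, the G-CSF receptor, was lower by a smaller margin, with 236 and 239 CPM against 2308 and 2348 CPM.

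By the rule for named genes, the largest differences in favor of neutrophils among abundant genes were those of Stfa2l1, Asprv1, Chil1, Ifnlr1, Il1f9, Ceacam10, Amer2, Mmp9, Retnlg, Camp, Wfdc21 and Olfm4. Stfa2l1, a stefin (an inhibitor of cysteine proteases), had no count in either CX3CR1+ library and 97.4 and 109 CPM in neutrophils, at least 379-fold higher than a floor of 3 counts per library allows in CX3CR1+ macrophages. The same bound was at least 558-fold for Asprv1, a skin-type aspartic protease, at least 509-fold for Ifnlr1, the receptor chain for type III interferons, and at least 423-fold for Ceacam10. Mmp9, the gelatinase of tertiary granules, had 7.24 and 10.2 CPM in CX3CR1+ macrophages and 5912 and 6282 CPM in neutrophils, a log2 fold change of -9.45 (SE 0.654). In all, 243 tested genes had 3 counts or fewer in each CX3CR1+ library, and 77 of them had none.

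Granule proteins separated by granule class. Of 15 tested genes of secondary (specific) granules 13 were lower in CX3CR1+ macrophages, beside 20.4% of all genes, and none higher, with a median of -4.99. Ltf (lactoferrin, ENSMUSG00000032496, chr9:111019271-111042767) had 25551 and 26548 CPM in neutrophils and 27.0 and 61.6 CPM in CX3CR1+ macrophages. Ngp, a cystatin-like granule protein, had 28278 and 29487 CPM against 31.9 and 67.9 CPM, and Lcn2, which binds bacterial siderophores, had 12272 and 13343 CPM against 39.0 and 44.1 CPM. These 3 genes were among the most abundant mRNAs of the neutrophil libraries and were lower by 8.27 to 9.20 in CX3CR1+ macrophages. Tertiary granules and secretory vesicles showed 8 lower and 1 higher of 10 tested genes, beside 20.4% and 27.6% of all genes. The lower genes included the gate gene Itgam. The gene that was higher, Arg1 (arginase, an enzyme of arginine breakdown), had 0.795 and 1.31 CPM in CX3CR1+ macrophages and at most 0.117 CPM in neutrophils.

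Azurophil granule genes did not follow this order. Of 9 tested, 5 were higher in CX3CR1+ macrophages, beside 27.6% of all genes, and 2 lower, beside 20.4%, with a median of 1.34. Mpo (myeloperoxidase) had 170 and 121 CPM in CX3CR1+ macrophages and 72.2 and 43.5 CPM in neutrophils (log2 fold change 1.34, SE 0.363, edgeR's quasi-likelihood test, Benjamini-Hochberg adjusted p = 0.0045), and without neutrophil replicate 2 the log2 fold change was 0.98 and it was no longer a DEG. Prtn3 (proteinase 3) had 46.9 and 31.7 CPM against 8.32 and 4.12 CPM, and Ctsg (cathepsin G) was higher by 3.08 (SE 0.455). Ctsc, the protease that activates these enzymes and is also a lysosomal enzyme of macrophages, was higher by 5.41, with 680 and 593 CPM against 17.6 and 12.5 CPM, and Cst7, an inhibitor of it, was the fifth. Serpinb1a, a cytosolic inhibitor of the same proteases, ran the other way with 27.6 and 28.1 CPM against 400 and 417 CPM, and so did Prss57. The groups did not overlap for any of these 7 genes, which was common over all genes (47.0% with CX3CR1+ macrophages higher and 40.5% with neutrophils higher). Lyz2 (lysozyme) was among the 10 highest genes per kilobase in CX3CR1+ macrophages and stood at 8822 and 9376 CPM there against 8468 and 8955 CPM in neutrophils, with a 95% interval of -0.37 to 0.49.

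S100 and stefin genes carried the widest list median of the reported fit, -8.84. Of 12 tested 9 were lower, beside 20.4% of all genes, and 2 higher, beside 27.6%. The size of the median depended on the genes kept. A filter in every group left 6 members, 4 lower and 1 higher, with a median of -2.34. In the list 5 members had 3 counts or fewer in each CX3CR1+ library, where fitted values depend on the prior count. S100a9 and S100a8, the calprotectin subunits, had 24671 and 27125 CPM and 13296 and 14419 CPM in neutrophils. In CX3CR1+ macrophages S100a9 had 31.8 and 77.1 CPM and S100a8 had 22.7 and 40.0 CPM. S100a10, the partner of annexin A2, was opposite to them with 192 and 176 CPM in CX3CR1+ macrophages and 2.46 and 0.905 CPM in neutrophils, a log2 fold change of 6.81, and S100a1 was higher by 1.59.

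**Figure D3:**
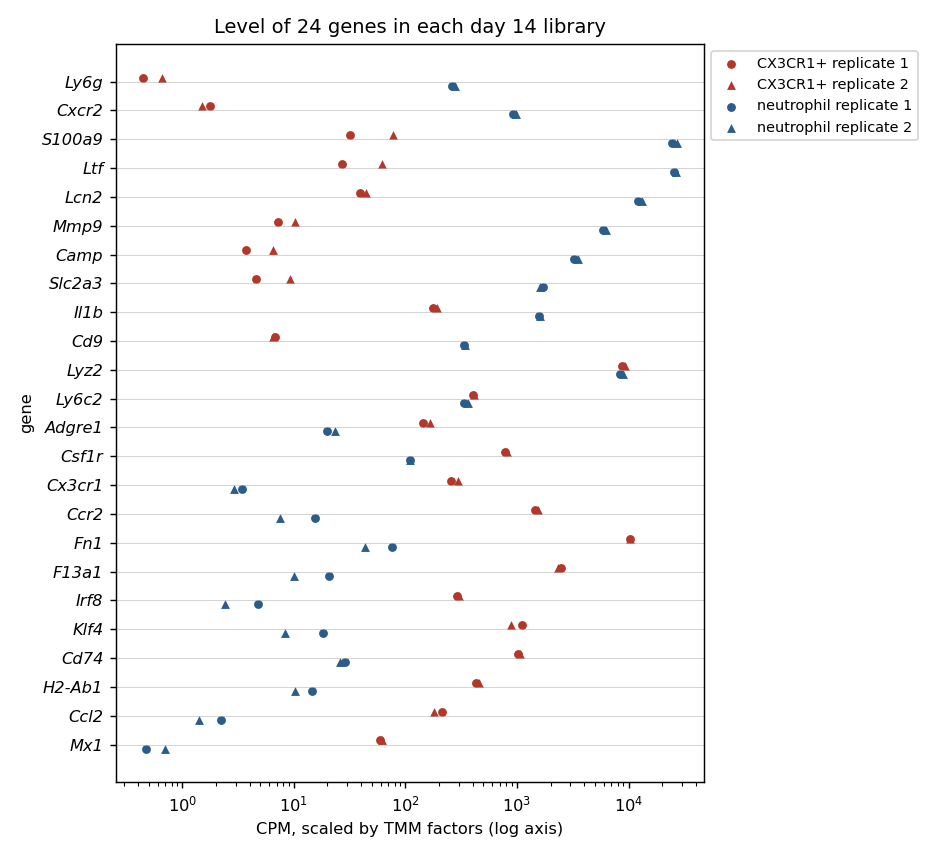
CPM (log axis) of 24 genes in each of the 4 libraries, red for CX3CR1+ macrophages and blue for neutrophils, circles for replicate 1 and triangles for replicate 2. Replicates lie close together beside the gap between populations except at the low end, where Ltf is at 27.0 and 61.6 CPM in CX3CR1+ macrophages and Fn1 at 75.2 and 43.1 CPM in neutrophils, and only Lyz2 and Ly6c2 have red and blue points side by side.

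The low levels of one population's genes in the other population's libraries were not equal between replicates. Over the 28 DEGs with at least 500 CPM in neutrophils and a log2 fold change of -5 or less, the median level in CX3CR1+ macrophages was 0.290% of the neutrophil level in replicate 1 and 0.397% in replicate 2, and 23 of the 28 were higher in replicate 2. Over the 13 DEGs chosen in the same way for CX3CR1+ macrophages, the median level in neutrophils was 1.42% in replicate 1 and 0.714% in replicate 2, and all 13 were higher in replicate 1. What these levels come from was not tested.

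Macrophage and monocyte genes were higher in the CX3CR1+ libraries, with those of recruited monocytes at the highest levels. Of 39 tested, 3 were lower, and the median was 3.80. With the gate genes Cx3cr1 and Adgre1 counted, 27 were higher, beside 27.6% of all genes. Fn1 (fibronectin, ENSMUSG00000026193, chr1:71585520-71653200) was the most abundant of them with 10328 and 10256 CPM in CX3CR1+ macrophages and 75.2 and 43.1 CPM in neutrophils, a log2 fold change of 7.44 (SE 0.299, edgeR's quasi-likelihood test, Benjamini-Hochberg adjusted p = 4.0e-11). F13a1, the coagulation factor that cross-links fibrin, had 2467 and 2322 CPM against 20.5 and 10.1 CPM. Ccr2 (ENSMUSG00000049103, chr9:124101950-124113557) had 1446 and 1538 CPM against 15.6 and 7.54 CPM, and Csf1r, the M-CSF receptor, had 777 and 819 CPM against 110.0 and 110.6 CPM. Each of these genes had both CX3CR1+ libraries above both neutrophil libraries, as did 47.0% of all genes tested.

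Markers of mature tissue macrophages were present at low levels. C1qa, C1qb and C1qc, the chains of complement C1q, were higher in CX3CR1+ macrophages by 3.53, 3.88 and 3.17, but their CPM there lay between 6.53 and 12.8. Trem2, a lipid receptor, had 15.8 and 15.9 CPM, and Mrc1 (CD206) had 33.9 and 45.3 CPM. The 3 members that were lower were Cd63, Chil3 and Lyve1. Chil3, a chitinase-like protein shared by neutrophils and monocytes, had 488 and 451 CPM in CX3CR1+ macrophages and 2428 and 2451 CPM in neutrophils. Lyve1, a hyaluronan receptor of resident macrophages, had 1 count in each CX3CR1+ library and 8.56 and 10.1 CPM in neutrophils.

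The largest differences in favor of CX3CR1+ macrophages among abundant genes, by the same rule, were those of Arhgef10l, Ptpro, Ms4a4c, Fn1, Itga1, F13a1, Ms4a6c, Ahnak, Rnd3, Ccr2, Padi2 and Ifi209, and ranged from 7.73 to 6.95. Arhgef10l, a guanine nucleotide exchange factor, had 137 and 144 CPM against 1.05 and 0.302 CPM. Ptpro, a receptor tyrosine phosphatase, had 171 and 199 CPM against 1.05 and 0.704 CPM, and Itga1, the collagen-binding integrin chain, had 195 and 197 CPM against 1.64 and 0.804 CPM. Ahnak, a giant scaffold protein, combined size and level with 6082 and 6019 CPM against 55.4 and 33.3 CPM. Padi2 was higher by 6.99 in CX3CR1+ macrophages while Padi4, the citrullinating enzyme of neutrophil extracellular traps, was lower by 4.25, with 52.6 and 55.1 CPM against 1006 and 1042 CPM.

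Most MHC class II genes were higher in CX3CR1+ macrophages. Of 18 tested genes of class II presentation, 13 were higher, beside 27.6% of all genes, 1 was lower, beside 20.4%, and 4 were not called, with a median of 4.77. H2-Ab1 had 433 and 455 CPM against 14.6 and 10.2 CPM, a log2 fold change of 5.17 (SE 0.205). Cd74, the invariant chain, had 1030.1 and 1065 CPM against 28.5 and 25.9 CPM, and Ciita, the coactivator of class II transcription, had 55.8 and 60.6 CPM against 0.938 and 0.302 CPM. The peptide editor genes H2-DMa and H2-DMb1 followed with log2 fold changes of 4.61 and 4.93. The lower member was the costimulatory ligand Cd80, with 13.3 and 7.09 CPM against 35.6 and 34.0 CPM, while Cd86 had 56.1 and 51.2 CPM against 9.61 and 9.35 CPM. MHC class I presentation showed 9 higher and 1 lower of 22 tested genes, beside 27.6% and 20.4% of all genes, with a median of 0.80. The counts were 14 higher and none lower with library size scaling. H2-K1 and H2-D1, the classical class I heavy chains, had log2 fold changes of 0.71 and -0.74 and were not DEGs, and Tap2, a subunit of the peptide transporter, was lower by 1.28. With library size scaling H2-K1 was at 1.17 and a DEG.

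The sequence before the annotated start was read for 12 of these 18 genes from RefSeq (GRCm38.p6), and the Y box of class II promoters, CTGATTGG on either strand, was found within 250 bases before the start in 3. All 3 were among the DEGs higher in CX3CR1+ macrophages, as were 8 of the 12 genes read. The letters occurred before 4.43% of the 27025 genes in the table. They lay before 6.37% of tested genes and 7.21% of the DEGs higher in CX3CR1+ macrophages. The stretches of 90 bases below run 5′ to 3′ on the gene's strand with the Y box in capitals, and are shown for the 3 class II genes that held it.
H2-Aa (chr17:34287826-34287915, minus strand): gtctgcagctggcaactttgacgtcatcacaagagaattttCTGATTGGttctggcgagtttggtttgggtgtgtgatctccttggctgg
H2-Eb1 (chr17:34305764-34305853, plus strand): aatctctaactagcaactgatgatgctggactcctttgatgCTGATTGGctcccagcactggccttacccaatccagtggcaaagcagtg
H2-Oa (chr17:34092289-34092378, plus strand): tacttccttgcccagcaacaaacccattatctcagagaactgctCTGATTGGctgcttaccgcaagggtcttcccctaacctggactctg
H2-Aa had 301 and 325 CPM in CX3CR1+ macrophages and 9.49 and 8.14 CPM in neutrophils, and H2-Eb1 had 195 and 177 CPM against 5.86 and 5.23 CPM. H2-Oa, which restrains the peptide editor, was at 1.50 and 1.49 CPM against 0.117 and 0.503 CPM, and was not a DEG without neutrophil replicate 1.

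The granule genes were searched for TTNNGNAA on either strand, the core of sites bound by C/EBP factors. It was found before 10 of the 12 specific granule genes that were higher in neutrophils and had a sequence. The letters are common, occurring before 40.3% of all genes in the table and before 37.0% of the DEGs higher in neutrophils. They also lay before 33 of 54 ISGs (61.1%) and 17 of the 25 ISGs higher in CX3CR1+ macrophages (68.0%). The matches nearest the start in 3 of the most abundant granule genes are shown in capitals.
Ngp (chr9:110419718-110419807, plus strand): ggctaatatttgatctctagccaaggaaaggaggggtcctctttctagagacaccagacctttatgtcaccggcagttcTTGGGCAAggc
Ltf (chr9:111019176-111019265, plus strand): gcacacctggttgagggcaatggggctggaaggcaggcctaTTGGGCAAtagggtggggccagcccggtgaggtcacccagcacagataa
Lcn2 (chr2:32387900-32387989, minus strand): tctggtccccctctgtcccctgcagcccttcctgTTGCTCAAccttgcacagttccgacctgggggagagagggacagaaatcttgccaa
A match describes the letters of these windows, and no binding was measured.

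Interferon-stimulated genes (ISGs) had members called in both directions. Of 65 tested, 31 were higher in CX3CR1+ macrophages, beside 27.6% of all genes, and 9 in neutrophils, beside 20.4%, with a median of 0.88. A filter in every group left 40 members, 15 higher and 7 lower in CX3CR1+ macrophages, with a median of 0.36. Mx1, a dynamin-like antiviral GTPase, had 58.9 and 61.0 CPM in CX3CR1+ macrophages and 0.469 and 0.704 CPM in neutrophils, a log2 fold change of 6.64 (SE 0.432). Genes of the Ifi200 cluster of DNA sensors were higher as well, with Ifi209 at 229 and 231 CPM against 2.46 and 1.31 CPM and Ifi203 at 125 and 136 CPM against 1.52 and 1.51 CPM. Irf8, an interferon regulatory factor required for monocyte development, had 290.4 and 299.9 CPM against 4.80 and 2.41 CPM. Near-identical copies within the Ifi200, Slfn, Ms4a, stefin and H2-Q families can share reads, so single members of these families are uncertain.

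The ISGs that were higher in neutrophils were Slfn4, Ifitm1, Sp140, Slfn1, Samd9l, Oas3, Ddx58, Isg20 and Rsad2. Slfn4, a Schlafen protein of myeloid cells, had 12.2 and 20.8 CPM in CX3CR1+ macrophages and 1691 and 1662 CPM in neutrophils, a log2 fold change of -6.67 (SE 0.285). Samd9l had 116 and 137 CPM against 609.8 and 594 CPM, and Ddx58, the RNA sensor RIG-I, had 44.9 and 58.5 CPM against 142 and 139 CPM. Rsad2 (viperin) was nearest the threshold at -1.04 and missed it, at -0.84, without CX3CR1+ replicate 1. With library size scaling 6 ISGs rather than 9 were higher in neutrophils.

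An interferon-stimulated response element core (GAAA, any 2 bases and GAAA again, on either strand) was found before 17 of 25 ISGs higher in CX3CR1+ macrophages that had a sequence and before 2 of 9 that were higher in neutrophils, beside 3.46% of all genes in the table. Examples from both directions are shown with the core in capitals.
Ifi207 (chr1:173741810-173741899, minus strand): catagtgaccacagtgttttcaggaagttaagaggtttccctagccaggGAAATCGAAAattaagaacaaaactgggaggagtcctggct
Slfn5 (chr11:82951907-82951996, plus strand): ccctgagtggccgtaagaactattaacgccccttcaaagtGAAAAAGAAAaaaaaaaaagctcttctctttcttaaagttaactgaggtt
Oas3 (chr5:120777685-120777774, minus strand): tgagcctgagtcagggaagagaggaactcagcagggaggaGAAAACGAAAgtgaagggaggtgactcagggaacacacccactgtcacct
Rsad2 (chr12:26456523-26456612, minus strand): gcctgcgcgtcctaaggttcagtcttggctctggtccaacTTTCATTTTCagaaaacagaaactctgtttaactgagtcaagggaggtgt
Ifi207 and Slfn5 were higher in CX3CR1+ macrophages by 5.59 and 3.63, and Oas3 and Rsad2 were lower by 1.72 and 1.04. The same core therefore lay before genes of either direction. The genes whose letters matched were not tested as a set.

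Il1b, a main inflammatory cytokine of myeloid cells, and its antagonists were higher in neutrophils. Of 24 tested genes of the IL-1 and TNF families, 12 were lower in CX3CR1+ macrophages, beside 20.4% of all genes. The 6 that were higher were near the 27.6% over all genes, and the list median was -0.95. Il1b had 177 and 193 CPM in CX3CR1+ macrophages and 1579 and 1615 CPM in neutrophils (log2 fold change -3.11, SE 0.186). The receptor antagonist Il1rn stood at 18.3 and 21.3 CPM against 302 and 308 CPM, and the decoy receptor Il1r2 stood at 15.5 and 15.1 CPM against 794 and 680 CPM. Tnf was lower by 2.16, while Tnfrsf1b, a TNF receptor, was higher with 490 and 568 CPM against 109 and 107 CPM. Nlrp3, the inflammasome sensor, had a log2 fold change of -0.68 and was not a DEG.

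Among chemokine ligands, Ccl2 and Ccl9 were higher in CX3CR1+ macrophages, and Cxcl2 and Cxcl3, ligands of CXCR2, were higher in neutrophils. Of 18 ligands tested, 10 were higher in CX3CR1+ macrophages, beside 27.6% of all genes, and 2 lower, beside 20.4%, with a median of 2.11. Fewer ligands were higher when any of the 4 libraries was left out. A filter in every group left 5 ligands, 2 higher and 1 lower, with a median of 0.36. Ccl2, the ligand of CCR2, had 212 and 182 CPM against 2.23 and 1.41 CPM, and Ccl9 had 461 and 436 CPM against 9.73 and 7.64 CPM. Cxcl2 had 39.3 and 38.5 CPM in CX3CR1+ macrophages and 453 and 442 CPM in neutrophils, and Cxcl3 had 0.177 and 0.280 CPM against 5.98 and 6.94 CPM. Of 18 chemoattractant receptors tested, 5 were higher, near the 27.6% over all genes, and 10 lower, beside 20.4%, with a median of -1.70. The higher receptors included Ccr2, Cmklr1, C3ar1 and the gate gene Cx3cr1. The lower receptors included C5ar1, which senses complement C5a, with 11.1 and 12.3 CPM against 383 and 415 CPM, and the formyl peptide receptor Fpr1 with 3.36 and 2.05 CPM against 340 and 317 CPM.

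Receptors for microbes and antibodies and complement genes had members in both directions. Toll-like and C-type lectin receptors had 10 higher and 5 lower of 28 tested, near the 27.6% and 20.4% over all genes, with a median of 0.30. Tlr9, which binds DNA in endosomes, had 86.8 and 91.3 CPM against 1.76 and 1.41 CPM, and Clec4d, a mycobacterial lipid receptor, had 12.7 and 14.1 CPM against 251 and 235 CPM. Of 6 Fc receptor genes tested, 3 were higher and 2 lower, beside 27.6% and 20.4% of all genes. With library size scaling 1 was lower, and a filter in every group left 4, 1 higher and 2 lower. Fcgr1, the high-affinity IgG receptor, had 48.2 and 50.6 CPM against 0.820 and 0.201 CPM, and Fcgr4 ran the other way with 13.3 and 11.2 CPM against 75.6 and 77.6 CPM. Complement genes had 5 higher and 4 lower of 15 tested, again near the shares over all genes. The surface inhibitor Cd55 was lower by 6.35, and C3, the central component, stood at 1752 and 1722 CPM against 2582 and 2595 CPM and was not a DEG.

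Lysosomal genes were higher in CX3CR1+ macrophages in 15 of 38 tested, beside 27.6% of all genes, and lower in 2, beside 20.4%, with a median of 0.62. Psap (prosaposin) had 3643 and 3876 CPM against 740.2 and 770.9 CPM, and Ctss, a cathepsin of antigen processing, had 1294 and 1396 CPM against 34.0 and 24.7 CPM. The lower members were Cd63 and Ctsd (cathepsin D), the latter with 106 and 112 CPM against 291 and 284 CPM. Genes of lipid handling had 12 higher and 1 lower of 20 tested, beside 27.6% and 20.4% of all genes, with a median of 2.54. The lower gene was the gate gene Cd9. With a filter in every group 12 members were left, 5 higher and 1 lower, with a median of 0.45. Apoe, the lipid carrier of macrophages, had 731 and 740.0 CPM against 43.7 and 42.0 CPM, and Msr1, a scavenger receptor, had 116 and 111 CPM against 2.58 and 1.61 CPM.

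Genes of the oxidative burst and of glycolysis leaned to neutrophils. Of 9 tested NADPH oxidase genes 5 were lower in CX3CR1+ macrophages, beside 20.4% of all genes, and none higher, with a median of -1.62. Ncf1 (p47phox) had 277 and 288 CPM against 2437 and 2581 CPM, and the membrane subunit Cybb had a log2 fold change of -0.97 and missed the fold threshold, which it passed at -1.07 with RLE factors and at -1.04 without neutrophil replicate 1. Of 27 tested genes of glycolysis and glycogen metabolism 18 were lower, beside 20.4% of all genes, and 1 higher, beside 27.6%, with a median of -1.32. Slc2a3, the high-affinity glucose transporter GLUT3, had 4.59 and 9.14 CPM against 1716 and 1612 CPM, while Slc2a1 (GLUT1) was lower by 1.13. Pygl, glycogen phosphorylase, had 241 and 257 CPM against 2056 and 2155 CPM. Pfkm, the muscle isoform of phosphofructokinase, was the member that was higher, by 2.42. With library size scaling the number of lower genes in the glycolysis list was 11.

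Ribosomal protein genes and mitochondrially encoded mRNAs were higher in CX3CR1+ macrophages. Of 80 tested cytosolic ribosomal protein genes, 71 were higher and none lower, with a median of 2.01, and their share of all counts was 2.05% and 1.96% against 0.390% and 0.395%. Rpsa had 781 and 799 CPM in CX3CR1+ macrophages, with a log2 fold change of 2.74. All 8 mitochondrially encoded mRNAs tested were higher, with a median of 2.52. mt-Co1 had 3956 and 4210 CPM against 795 and 815 CPM, and the mitochondrial mRNAs took 1.08% and 1.12% of counts against 0.130% and 0.128%. Nuclear-encoded subunits of the respiratory chain had 12 higher and 1 lower of 77 tested, a smaller share than the 27.6% and 20.4% over all genes, with a median of 0.48. With library size scaling 32 were higher and with upper quartile factors 20. Ndufv3, a complex I subunit, was the lower one, and not without CX3CR1+ replicate 1.

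Cell cycle genes were higher in 14 of 36, beside 27.6% of all genes, and lower in none, beside 20.4%, with a median of 0.82. The DEGs were mainly factors of DNA replication, such as the helicase subunit Mcm6 with 135 and 106 CPM against 31.4 and 20.9 CPM. Mki67 had 1779 and 1595 CPM against 919 and 814 CPM, a log2 fold change of 0.96 just under the threshold, and Top2a had one of 0.83. Mki67 passed at 1.42 with library size scaling, at 1.04 without CX3CR1+ replicate 2 and at 1.03 without neutrophil replicate 1. With library size scaling 27 of the 36 were higher, so the number that pass depends on the scaling.

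Lineage transcription factors had 15 higher and 9 lower of 38 tested, beside 27.6% and 20.4% of all genes, with a median of 0.32. Klf4, a factor of monocyte differentiation, had 1116 and 889 CPM against 18.0 and 8.34 CPM, and Zeb2 was higher by 3.85. On the neutrophil side stood Cebpe, which drives specific granule genes, with 2.38 and 2.61 CPM against 150.5 and 156.5 CPM, and Gfi1, a repressor of monocyte genes, with 0 and 0.373 CPM against 25.3 and 22.5 CPM. Spi1 (PU.1), which both lineages need, was lower by 1.11, and Cebpb had a log2 fold change of -0.60 and was not a DEG. Spi1 missed the threshold at -0.94 with upper quartile factors and at -0.65 with library size scaling.

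Cytokine and growth factor receptors had 12 higher and 3 lower of 26 tested, beside 27.6% and 20.4% of all genes, with a median of 0.45. Il6st, the gp130 chain shared by IL-6 family cytokines, had 271 and 278 CPM against 3.05 and 1.51 CPM, and the lower genes were Csf3r, Tnfrsf1a and Kit, with 5 lower without neutrophil replicate 2 and Tnfrsf1a at -0.97, under the threshold, without CX3CR1+ replicate 1. Kit, the stem cell factor receptor, had 2.03 and 1.03 CPM against 52.5 and 60.5 CPM. The BCL2 family had 6 higher and 2 lower of 15 tested, beside 27.6% and 20.4% of all genes, with a median of 0.18. Fewer were lower when either neutrophil library or CX3CR1+ replicate 1 was left out, and none with library size scaling. Pmaip1 (Noxa) was higher by 2.02, and Mcl1, the survival factor of neutrophils, had a log2 fold change of -0.76.

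Repair and matrix genes had 9 higher and 9 lower of 29 tested, beside 27.6% and 20.4% of all genes, with a median of 0.87. The division depended on the genes kept. A filter in every group left 14 members, 3 higher and 7 lower, with a median of -1.43. The 4 compared libraries alone gave 7 higher and 9 lower of 20, with a median of -0.21. Besides Fn1, the higher genes included Tgfb1 with 292 and 304 CPM against 101 and 91.7 CPM and Tgfbi with 1148 and 1205 CPM against 505 and 502 CPM. The lower genes included Thbs1 (thrombospondin-1) with 1082 and 1115 CPM against 7417 and 6740.0 CPM, Vegfa with 39.3 and 39.8 CPM against 151 and 159 CPM, and Osm (oncostatin M) with 172 and 160 CPM against 791 and 696 CPM. Lipid mediator genes had 2 higher and 5 lower of 14 tested, beside 27.6% and 20.4% of all genes. Alox5, the first enzyme of leukotriene synthesis, had 13.2 and 19.8 CPM against 722 and 759 CPM, and Hpgd, which degrades prostaglandins, was higher by 5.31. Heme and iron genes had 5 higher and 6 lower of 16 tested, beside 27.6% and 20.4% of all genes. The iron exporter Slc40a1 (ferroportin) had 1.59 and 1.49 CPM in CX3CR1+ macrophages and 251 and 285 CPM in neutrophils.

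**Figure D4:**
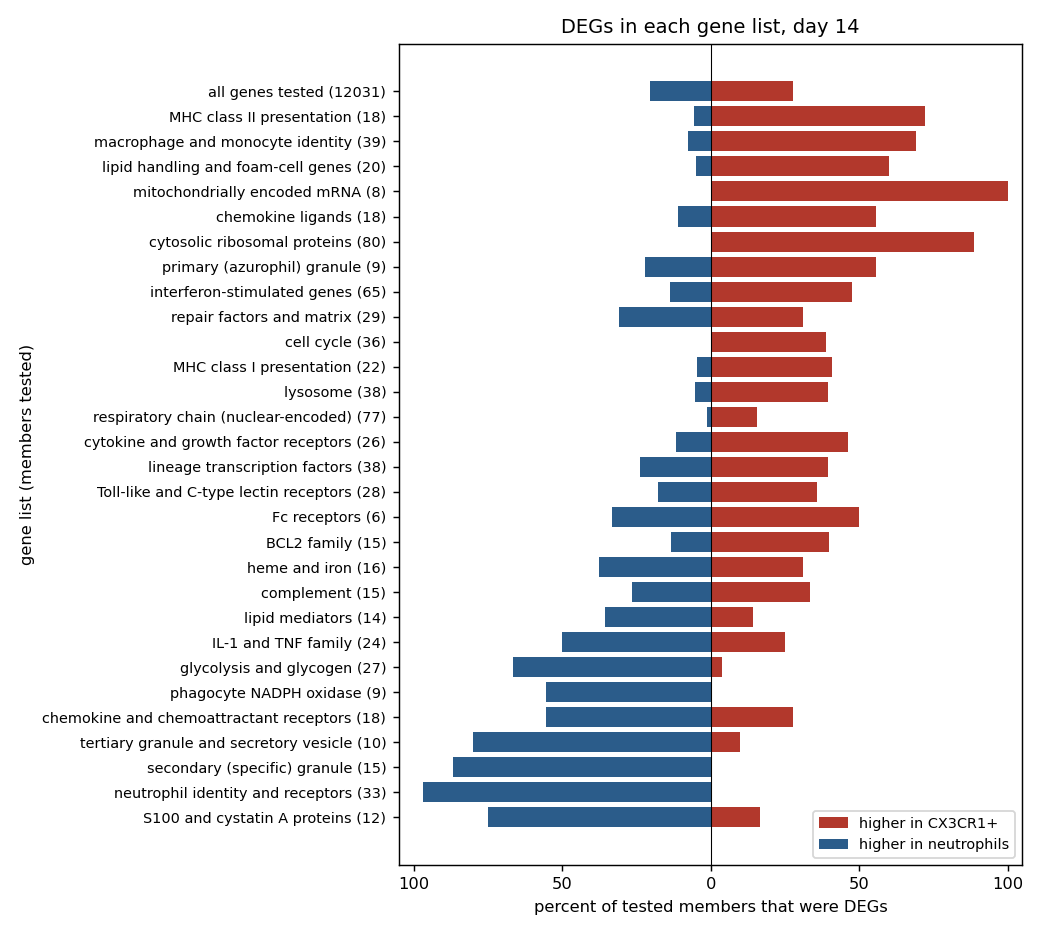
Percent of the tested members of each list that were DEGs, red to the right for genes higher in CX3CR1+ macrophages and blue to the left for genes higher in neutrophils, ordered by median log2 fold change, with all 12031 tested genes at the top. Neutrophil identity (32 of 33) has the longest blue bar and mitochondrially encoded mRNA (8 of 8) the longest red bar, beside 20.4% and 27.6% over all genes.

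Some genes had alike levels within a stated bound. For 2969 genes (24.7%) the 95% interval of the log2 fold change lay within -1 to 1. They included Lyz2, Ly6c2, the inhibitory receptor Sirpa (625 and 732 CPM against 654 and 703 CPM), the beta-glucan receptor Clec7a (610.5 and 686 CPM against 561 and 547 CPM), the galectin Lgals3 (417 and 435 CPM against 329 and 359 CPM), and B2m, the light chain of MHC class I (712 and 715 CPM against 543 and 685 CPM).

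Per kilobase of exon, the highest genes of both populations included short noncoding and ribosomal RNA loci. In CX3CR1+ macrophages the 10 highest were Gm23935, mt-Rnr2, mt-Rnr1, Rn7sk, Lyz2, Gm26917, Gm24187, Gm42418, Actb and Mir6236. In neutrophils S100a9, Ngp, S100a8 and Ltf took the place of Lyz2, Gm26917, Gm42418 and Mir6236. Lyz2 stood at 6914 CPM per kilobase in CX3CR1+ macrophages, and in neutrophils S100a9 stood at 49613 and Ngp at 23636 CPM per kilobase. The mitochondrial ribosomal RNAs took 10.9% and 12.8% of counts in CX3CR1+ macrophages and 3.75% and 4.19% in neutrophils.

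Markers of other cells were low in most lists. Their counts of DEGs stand beside 27.6% higher and 20.4% lower in CX3CR1+ macrophages over all genes. T and NK markers summed to 3.18 to 3.83 CPM in CX3CR1+ libraries and 8.85 to 10.8 CPM in neutrophil libraries, and of 4 tested 1 was higher and 1 lower. B and plasma cell markers summed to 242 to 245 CPM against 154 to 157 CPM, with 2 higher and none lower of 8. Dendritic cell markers summed to 62.5 to 65.7 CPM against 3.32 to 3.52 CPM, and 5 of 7 were higher, among them Flt3 with 21.8 and 27.2 CPM. Eosinophil markers summed to 89.5 to 133 CPM against 89.4 to 92.0 CPM, with 3 higher and 2 lower of 9. None was higher without CX3CR1+ replicate 1 or without neutrophil replicate 2, and 1 was lower without CX3CR1+ replicate 2 or neutrophil replicate 1. Basophil and mast cell markers summed to 5.83 to 9.33 CPM against 1123 to 1199 CPM, nearly all of it Hdc, which neutrophils also express, and 4 of 8 were lower. Platelet markers had 2 lower of 5 and osteoblast and osteoclast markers 2 higher and 2 lower of 6, where Mmp9 made up most of the neutrophil sum. The platelet count was 1 without neutrophil replicate 1 and 4 without replicate 2. Without either neutrophil library no T and NK marker was higher, and 1 B and plasma cell marker was higher without CX3CR1+ replicate 2 or neutrophil replicate 2.

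CX3CR1+ replicate 2 stood apart in erythroid and stromal markers. The erythroid list summed to 12.5 CPM in replicate 1 and 86.2 CPM in replicate 2, against 26.3 to 33.2 CPM in neutrophils, and none of its 5 tested genes was a DEG, while 1 was higher without CX3CR1+ replicate 1. The stromal and endothelial list summed to 28.3 CPM in replicate 1 and 107 CPM in replicate 2, against 81.6 to 86.1 CPM in neutrophils, with 1 of 6 tested genes lower, and 2 lower without CX3CR1+ replicate 2. Col1a1, a chain of type I collagen, had 1.77 and 35.4 CPM in CX3CR1+ macrophages and 15.4 and 14.3 CPM in neutrophils. Col3a1 had 0 and 30.7 CPM against 2.23 and 3.52 CPM, and neither was a DEG. Without CX3CR1+ replicate 2 the log2 fold change of Col1a1 was -3.06 and it was a DEG, and without CX3CR1+ replicate 1 that of Col3a1 was 3.41 and it was a DEG, so each collagen value rested on a single library.

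The difference between the populations was not that of POD 1 for 1059 genes (8.8% of those tested). The interaction with day was higher on POD 14 for 821 genes (6.82%) and lower for 238 (1.98%). Of the 821, 281 were higher in CX3CR1+ macrophages on both days and 194 on POD 14 but not called on POD 1, while 176 were lower on POD 1 and not called on POD 14, 71 were lower on both days and 39 changed from lower to higher. Of the 238, 92 were lower in CX3CR1+ macrophages on both days, and 67 were higher on POD 1 and not called on POD 14. An interaction does not say which population changed. Levels of both populations on both days are given below for Ccl3, Lrg1 and S100a8. Where only fold changes or interactions are given, the population that changed is not told.

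Ccl3, a chemokine that draws monocytes and neutrophils, turned in direction. On POD 1 it had 118 and 124 CPM in CX3CR1+ macrophages and 1439 and 2898 CPM in neutrophils, a log2 fold change of -4.16. On POD 14 it had 224 and 158 CPM against 64.3 and 58.1 CPM, a log2 fold change of 1.64 (SE 0.250). The interaction was 5.80 (SE 0.364, edgeR's quasi-likelihood test, Benjamini-Hochberg adjusted p = 2.1e-07). The neutrophil libraries of the days differed by far more than those of CX3CR1+ macrophages. Gpc3, Il23a and Ppp1r13l also had higher interactions, with neutrophil levels on POD 1 of 94.2 and 69.7 CPM, 37.6 and 96.0 CPM, and 55.0 and 74.9 CPM, and at most 1.51 CPM on POD 14. The interaction of Il23a was not called when any POD 14 library or either CX3CR1+ library of POD 1 was left out.

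In the other direction, genes named by the rule had fewer CPM in CX3CR1+ macrophages on POD 14 than on POD 1. Lrg1 had 60.2 and 47.7 CPM in CX3CR1+ macrophages on POD 1 and 1.148 and 0.746 CPM on POD 14, with neutrophils at 597 and 448 CPM and at 433 and 394 CPM, an interaction of -5.47 (SE 0.424). S100a8 had 321 and 279 CPM in CX3CR1+ macrophages on POD 1 and 22.7 and 40.0 CPM on POD 14, while neutrophils had 12032 and 7165 CPM and 13296 and 14419 CPM. Wfdc21, AA467197, Ifnlr1 and Mapk13 followed with interactions of -4.94, -6.24, -4.22 and -3.72. For these genes, the CX3CR1+ libraries of the days did not overlap. They were picked by the size of their interaction, and the share of all genes without such overlap was not counted. The lack of overlap is therefore no added support.

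Several of the genes that set CX3CR1+ macrophages apart on POD 14 had a smaller difference on POD 1. Fn1 had a log2 fold change of 4.19 on POD 1 and 7.44 on POD 14, Ccr2 of 4.68 and 7.03, Irf8 of 4.22 and 6.38, and H2-Ab1 of 3.39 and 5.17, and each of these interactions was a DEG. By list, the interaction was higher for 13 of 39 macrophage genes, 18 of 65 ISGs, 12 of 38 transcription factors and 6 of 18 class II genes, beside 6.82% of all genes. It was also higher for 6 of 18 chemokine ligands, 6 of 18 chemoattractant receptors, 7 of 24 IL-1 and TNF family genes, 7 of 26 cytokine receptors, 5 of 15 BCL2 family genes and 8 of 27 glycolysis genes. A higher interaction of a gene that was lower in CX3CR1+ macrophages on both days is a narrower gap, as for the glycolysis gene Slc2a3 at -7.92 on POD 14 against -9.22 on POD 1. The interaction was lower for 6 of 36 cell cycle genes, 4 of 15 specific granule genes, 4 of 33 neutrophil identity genes, 3 of 12 S100 and stefin genes and 3 of 8 B and plasma cell markers, beside 1.98% of all genes. The number of genes with a lower interaction was 395 without neutrophil replicate 1 of POD 1, 153 without replicate 2 of POD 1, 149 and 154 without neutrophil replicates 1 and 2 of POD 14, and 158 without CX3CR1+ replicate 2 of POD 14.

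**Figure D5:**
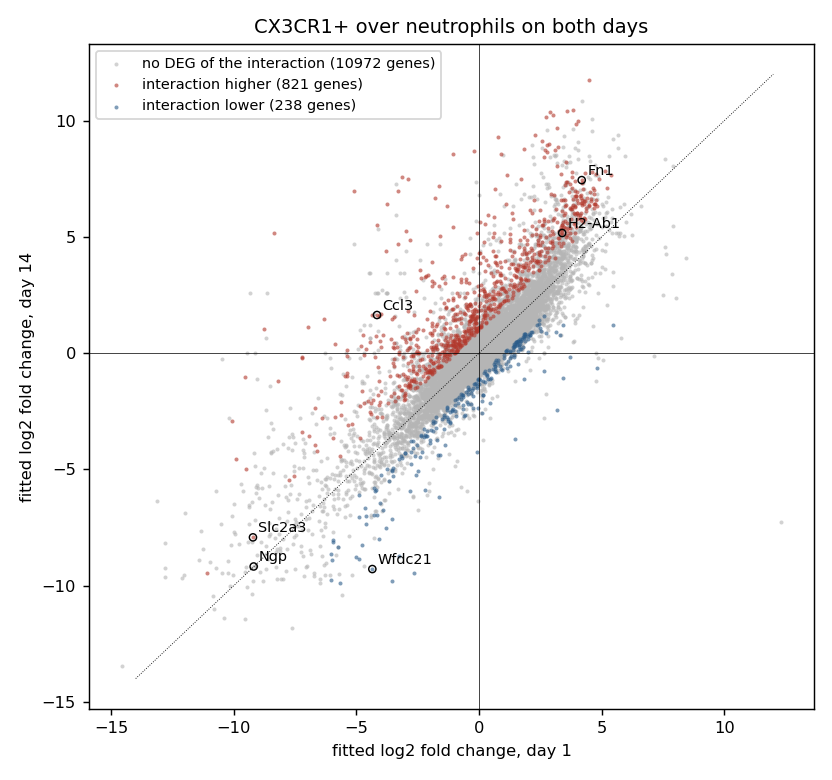
Fitted log2 fold change (CX3CR1+ over neutrophils) on POD 1 (x axis) and POD 14 (y axis) for the 12031 tested genes, with the 821 genes whose interaction was higher in red, the 238 whose interaction was lower in blue, and the dotted line where the days are equal. Ccl3 lies at -4.16 and 1.64, Fn1 lies above the line at 4.19 and 7.44, and Wfdc21 lies below it.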

How the data were processed

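The authors trimmed the read pairs from SMART-Seq Stranded libraries, aligned them to mm10 with STAR, counted reads in exons of a Gencode annotation and deposited raw counts per gene, without normalization. The strand setting of the counting is not given in the sources used here. The 20200 listed genes have at least 17 counts over the 16 libraries. Counts were fitted in R 4.3.3 with edgeR 4.0.16 (glmQLFit, glmQLFTest) as 8 group means over 16 libraries, after keeping genes whose mean CPM reached 3 in 1 or more groups. CPM per kilobase used exon lengths of the GRCm38 annotation. With 2 libraries a group, common dispersion corresponded to a coefficient of variation of 0.178. Replicates differed by more than sampling noise. On simulated counts for this contrast, 100 of 100 genes changed by a log2 fold of 3 and 93 of 100 changed by 1.5 were recovered, with 9 false calls. The simulation changed few genes, equally in both directions, with a single dispersion for all genes. It therefore cannot give the error of calls or of scaling where 48.0% of genes differ. Alternatives were other scalings, filters, DESeq2 1.42.0, a replicate block, fewer libraries and leaving out each library.

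Named genes were the gate genes, the 12 DEGs with the largest change in each direction with at least 100 CPM and no overlap, the 10 highest per kilobase, the 6 largest interactions in each direction with at least 50 CPM, and members of described lists. The members and lists were chosen with earlier results of these data known. P-values measure the spread between pools of mice and take the libraries as unpaired. Intervals and floors (3 counts) cover these libraries only.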

Additional observations from a re-analysis of the deposited data

Results flagged for a closer look

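The difference between CX3CR1+ macrophages and neutrophils on POD 14 departed from that on POD 1 for 1059 genes in the test of the interaction with day. The named genes with the largest interactions were Gpc3 at 13.50, Gm10800 at 10.69, Gm10801 at 8.03, Il23a at 7.004, Ccl3 at 5.80 and Ppp1r13l at 5.50 on the log2 scale. In the other direction stood AA467197 at -6.24, Lrg1 at -5.47, Wfdc21 at -4.94, Ifnlr1 at -4.22, S100a8 at -3.79 and Mapk13 at -3.72. For Gpc3 and Il23a the POD 14 levels were under 1 CPM in all 4 libraries, so the size of the interaction depends on the prior count.

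Gm10800 and Gm10801 rested on single libraries. On POD 14 Gm10800 had 0 and 269 CPM in CX3CR1+ macrophages and 0.820 and 0.603 CPM in neutrophils, and on POD 1 it had 635 and 41.7 CPM in neutrophils. Gm10801 had 0.265 and 45.2 CPM against 0.234 and 1.41 CPM on POD 14. The cause was not tested.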

How the results depend on the processing

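The 5773 DEGs of POD 14 became 5749 with a replicate block within each day, 5710 of them shared, and named genes kept their calls under it. The interaction count was then 1099. The replicate numbers do not mark a stated shared pool. The paper's total of mice, against the number pooled for each sort, is too small for a separate pool behind each library. Populations of a day therefore likely shared pools. Deviations of same-numbered libraries correlated at 0.0202 on POD 14 and 0.0502 on POD 1. The block was not used for the reported values, whose p-values leave such pairing out. Scaling by library size, upper quartile or RLE gave 6158, 5848 and 5770 DEGs, DESeq2 gave 5845, no filter 6345, and the 4 compared libraries alone 5449. A filter in every group left 7896 genes and gave 3100 DEGs and 660 interaction genes, since fewer genes were tested. It gave 1695 DEGs higher and 1405 lower in CX3CR1+ macrophages and 462 interaction genes in the higher direction. Dropping the fold threshold gave 8041 DEGs, 3704 of them lower. DESeq2 gave 1252 interaction genes. Leaving out each library in turn gave 5313 to 5544 DEGs, 723 to 1282 interaction genes and 2331 to 2381 genes alike. Over 169 named genes, 2061 of 2124 alternative values kept direction and side of the threshold, and 33 lost the call. Leaving out each library gave Gm10800 values from -6.31 to 8.56 on POD 14 and from -3.18 to 11.69 in the interaction, and Gm10801 values from -1.66 to 6.52 on POD 14, with the reversals without CX3CR1+ replicate 2, which held their counts. In these fits the lone library of a group was assumed to vary like the other groups. With library size alone Tap2, Ddx58, Isg20, Rsad2, Ctsd, Slc2a1, Ndufv3, Spi1, Tnfrsf1a, Rn7sk and Actb lost the call. Upper quartile factors took the call from Rsad2, Slc2a1, Ndufv3, Spi1 and Tnfrsf1a. With 2 libraries a group, genes near 3 counts have the least precise values.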
